A study of Mus musculus with 30 samples.

Results

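Cell cycle and proliferation genes were examined in the extensor digitorum longus (EDL), a fast hindlimb muscle, of mice with experimental autoimmune encephalomyelitis (EAE), a model of multiple sclerosis. The group comprised 33 genes, listed by name with earlier results of these data known, out of the 21073 genes of the expression table, and all 33 had a row. Muscles came from 30 female wild-type SJL/J mice, 5 in each of 6 groups. Unimmunized mice (Ctrl) received nothing, OVA mice were immunized with ovalbumin in complete Freund's adjuvant (CFA), and EAE mice were immunized with the [Ser140]-PLP139-151 peptide of myelin proteolipid protein in CFA. Each treatment was sampled 14 days after immunization, at the peak of disease, and again in other mice after 40 days, in the second remission. CFA was therefore shared by OVA and EAE and absent from Ctrl. The ages of the mice were not given in the sources used here. Days 14 and 40 may also differ in age and possibly in when the muscles were processed, which cannot be told apart from time after immunization.

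A dividing cell copies its DNA in S phase and separates the copies in mitosis, and each step needs proteins that resting cells make little of. In S phase the MCM helicase and the sliding clamp PCNA copy DNA while ribonucleotide reductase and thymidylate synthase supply nucleotides. CDK1 with cyclins A and B then drives mitosis, aurora and polo-like kinases build the spindle, and the anaphase-promoting complex ends mitosis by having cyclins destroyed. Muscle fibres are post-mitotic, so in adult muscle division is known from satellite cells (the muscle stem cells), fibro-adipogenic progenitors, endothelium and blood cells, which are a minor part of the tissue. Because bulk muscle was measured, fewer cells of a type and less RNA per cell cannot be told apart in any result below.

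Levels are given as RPKM (reads per kilobase of exon and per 1 M mapped reads), a scale on which genes of different length can be compared. Libraries held an estimated 18.1 to 31.5 M mapped reads, with the deepest in the 3rd EAE mouse of day 14 and a median of 21.6 M. The tissue label fitted the markers of fast fibres, with a group mean of 15369 to 19693 RPKM for skeletal actin ACTA1, and 0 of 8 fast fibre markers were called different between EAE and either other group on day 14. Their sum was nevertheless lower in every EAE mouse (55759.7 to 68971.3 RPKM) than in every Ctrl mouse (69240.5 to 89571.8). It overlapped with that of OVA mice (62853.3 to 82037.5). TNNC2, fast troponin C, was not on this list and was called lower in EAE vs. Ctrl, as given with UBE2C below. Against this background the cell cycle genes were rare transcripts. In 21 of the 33 the group mean stayed below 1 RPKM in all 6 groups, and 6 reached a group mean of 3 RPKM in any group. Reads were found in all but 2 of the 990 values. The exceptions were CCNB1 in 1 Ctrl and 1 OVA mouse of day 40, where 3 reads would correspond to 0.0532 and 0.0569 RPKM.

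Replication genes had the highest levels. PCNA, the clamp that holds DNA polymerases on the template, had group means of 8.03 to 11.4 RPKM, and RRM1, the large subunit of ribonucleotide reductase, 8.48 to 10.8 RPKM. MCM7 ranged from 4.76 to 5.27 RPKM and MCM6 from 2.69 to 3.17 RPKM. Of the 23 genes outside replication, 20 were below 1 RPKM in all groups, and the kinase AURKA was the most abundant, with group means of 1.78 to 3.82 RPKM. At the other end stood the large kinetochore protein CENPF, with 0.0287 to 0.122 RPKM, and the checkpoint kinase BUB1, with 0.0558 to 0.158 RPKM. The levels of the roles overlapped, since AURKA exceeded most replication genes in all groups but day 14 EAE, and UBE2C and TPX2 exceeded RRM2 in several groups.

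Promoters were read because many of the mitotic genes fell together in EAE on day 14. RefSeq promoters (GRCm38.p6) were matched for 28 of the 33 genes, and the 250 bases before the start were searched on both strands for the letters TTTGAA or TTCGAA of the CHR element, the CCAAT box, and TTTGGCGC or TTTCGCGC of the E2F site. CHR and CCAAT elements are known from promoters of G2 and mitotic genes, and E2F sites from those of S-phase genes. CHR letters were in 9 of 19 promoters outside replication (47.4%), in 2 of 9 replication promoters (22.2%) and in 17.4% of all 27025 promoters. CCAAT letters were in 17 of 19 (89.5%) and 8 of 9 (88.9%), against 34.5% of all promoters. CHR and CCAAT together were in 9 of 19 (47.4%) and 2 of 9 (22.2%), against 6.21% of all. The letters did not follow the day 14 results gene by gene. BIRC5, NUSAP1 and TYMS, which fell in EAE, held none of them, and MCM2, MCM7, KIF11 and ECT2, which were not called, held CHR and CCAAT. E2F letters were in CDK1, MCM5 and MCM6 and in 0.673% of all promoters. Such matches describe letters and are not measured sites. To show both types, the last 150 bases before the start are given for 3 mitotic genes with CHR and CCAAT letters (CDK1, CDC20 and UBE2C), for AURKA with CCAAT letters alone, and for the replication gene MCM6 with E2F and CCAAT letters. Capitals mark the matches on either strand, and each sequence runs 5′ to 3′ on the strand of its gene.
CDK1 (chr10:69352913-69353062, minus strand): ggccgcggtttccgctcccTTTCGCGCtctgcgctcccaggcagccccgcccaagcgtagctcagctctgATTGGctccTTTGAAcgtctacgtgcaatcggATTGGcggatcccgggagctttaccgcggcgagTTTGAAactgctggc
CDC20 (chr4:118437344-118437493, minus strand): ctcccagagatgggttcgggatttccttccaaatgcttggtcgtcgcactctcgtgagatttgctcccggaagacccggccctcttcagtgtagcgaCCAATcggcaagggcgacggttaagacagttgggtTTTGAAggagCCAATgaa
UBE2C (chr2:164769779-164769928, plus strand): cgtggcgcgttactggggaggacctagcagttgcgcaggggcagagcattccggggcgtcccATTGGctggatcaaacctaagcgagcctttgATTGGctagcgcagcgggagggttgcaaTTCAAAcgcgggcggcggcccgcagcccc
AURKA (chr2:172370571-172370720, minus strand): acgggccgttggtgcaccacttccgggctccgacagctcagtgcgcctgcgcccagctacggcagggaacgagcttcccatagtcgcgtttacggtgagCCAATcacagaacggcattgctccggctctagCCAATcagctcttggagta
MCM6 (chr1:128359706-128359855, minus strand): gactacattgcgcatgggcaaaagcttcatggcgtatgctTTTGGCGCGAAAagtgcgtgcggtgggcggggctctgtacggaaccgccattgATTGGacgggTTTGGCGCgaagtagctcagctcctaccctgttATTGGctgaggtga

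On day 14, the question was whether EAE changed these genes in the muscle relative to unimmunized mice and relative to mice given CFA with an unrelated antigen. Of the 21 tested genes outside DNA replication, 15 fell in EAE vs. Ctrl and 12 vs. OVA, and of the 10 replication genes only TYMS was called in either comparison. Genes with a mean above 0.1 RPKM over the 15 mice of the day were tested with limma on log2(RPKM + 0.1). A gene was called at a Benjamini-Hochberg adjusted p below 0.05 over all genes together with a fold change above 1.5, a fold that is understated for low genes on this scale. Of the 33 genes, 31 were tested. In EAE vs. Ctrl, 16 were called lower and 0 higher, with 18 at an unadjusted p below 0.05, and over all genes tested 13.8% were called lower and 11.6% higher. In EAE vs. OVA, 13 were lower and 0 higher, with 17 at an unadjusted p below 0.05, whereas 9.39% of all genes were lower and 8.53% higher. With quantile normalization, 12 were lower vs. Ctrl (BUB1B, CENPE, CDC20 and TYMS lost) and 11 vs. OVA (CDC20 and PLK1 lost). The 3 genes called vs. Ctrl and not vs. OVA were CENPE, TPX2 and NUSAP1. Both comparisons share the EAE mice. The median log2 fold change of the 31 genes was -0.63 (EAE vs. Ctrl) and -0.50 (EAE vs. OVA), and that of all genes 0.03 and 0.04. In OVA vs. Ctrl, 0 of the 31 were called, 1 (RRM1) had an unadjusted p below 0.05, and 0.358% of all genes were called in either direction.

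**Figure D1:**
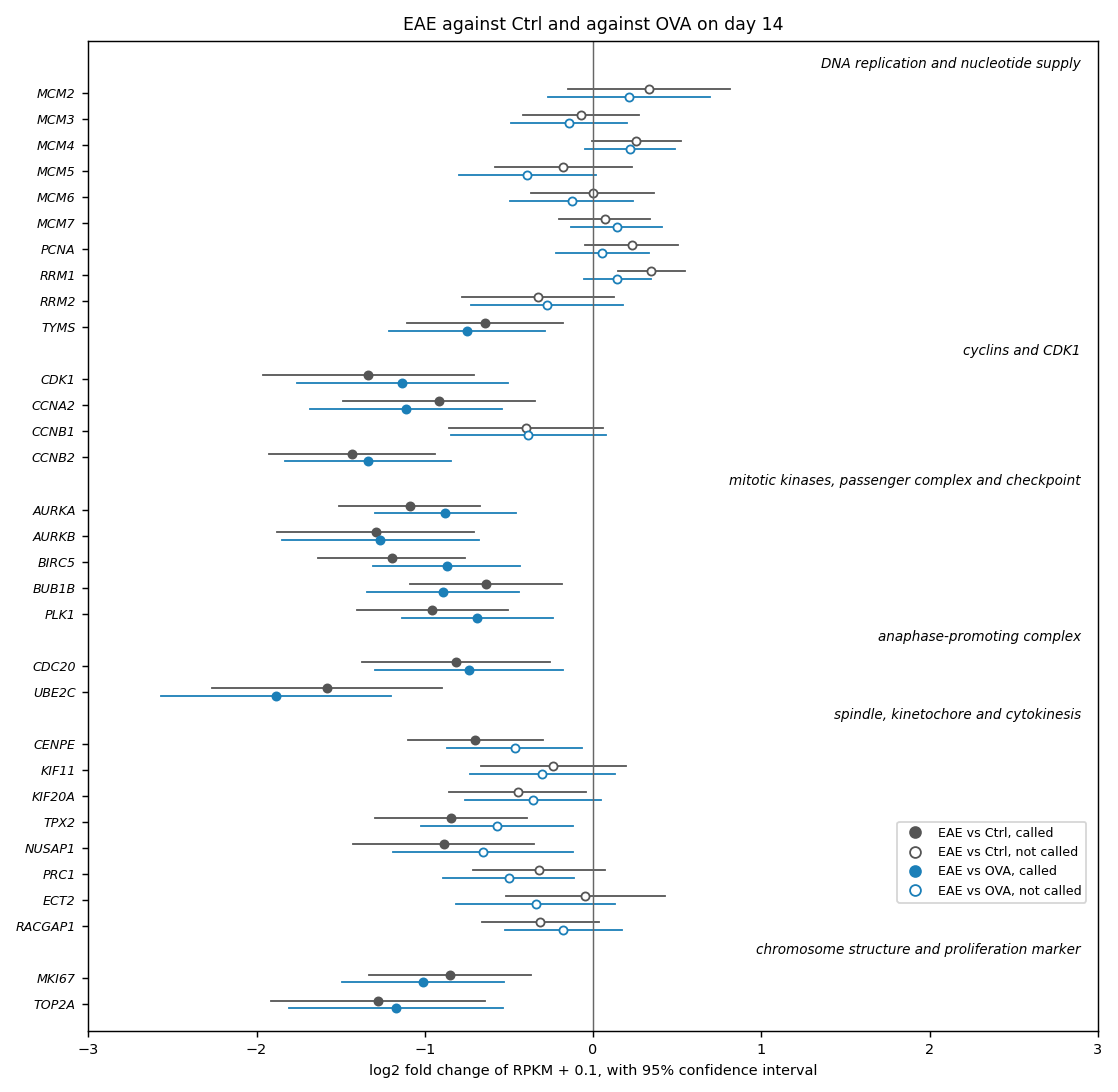
Log2 fold change (x axis) of the 31 tested genes in EAE vs. Ctrl (grey) and EAE vs. OVA (blue) on day 14, with 5 mice a group, 95% confidence intervals from limma as lines and filled points for called genes. All filled points lie left of 0, and the replication genes at the top lie around 0 except TYMS.

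All calls were made among rare transcripts. On day 14, 27 of the tested genes had a mean of at most 3 RPKM, and the 16 and 13 lower calls were among these. Genes at most at that level were called lower in 17.9% (EAE vs. Ctrl) and 9.8% (EAE vs. OVA) of all cases. In 8 genes (CCNB2, AURKA, AURKB, BIRC5, PLK1, UBE2C, CENPE and TOP2A) every EAE mouse lay below every Ctrl mouse, compared with 10.5% of all genes. In 6 genes (CCNA2, CCNB2, AURKA, BIRC5, BUB1B and UBE2C) every EAE mouse lay below every OVA mouse, compared with 6.97% of all genes. A pseudocount of 1 RPKM, which is above the level of most of these genes, left 2 lower calls in each comparison. With this pseudocount and no fold threshold, chosen after seeing the data, 16 and 13 genes were lower, and the 13 vs. OVA held 12 of those called above, with PRC1 in place of CDC20.

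Replication genes were considered first. PCNA was measured at 8.63, 10.2, 9.25, 11.1 and 9.18 RPKM in Ctrl, 13.3, 8.73, 9.74, 10.8 and 12.6 in OVA and 14.6, 10.5, 10.7, 10.5 and 10.8 in EAE. EAE mice overlapped with both other groups, and 1 EAE mouse stood above the other four. Its log2 fold change was 0.23 (95% interval -0.05 to 0.51, adjusted p = 0.170) vs. Ctrl and 0.05 (-0.22 to 0.33, adjusted p = 0.782) vs. OVA, and the latter turned negative under 2 other scalings, without OVA mouse 2 and without EAE mouse 1. RRM1 had 8.48 ± 0.818 RPKM in Ctrl and 10.8 ± 0.765 in EAE (SD, n = 5), with every EAE mouse above every Ctrl mouse. Its difference of 1.27-fold (adjusted p = 0.00884, limma) was below the fold threshold and it was not called. The 6 subunits of the MCM helicase, which unwinds DNA at replication forks, had log2 fold changes of -0.18 (MCM5) to 0.33 (MCM2) vs. Ctrl and -0.39 (MCM5) to 0.22 (MCM4) vs. OVA, and 0 were called. RRM2, the small subunit of ribonucleotide reductase, was at 1.06, 1.06 and 0.836 RPKM in Ctrl, OVA and EAE and was not called (log2 fold change -0.33 vs. Ctrl).

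TYMS, thymidylate synthase, which makes the thymidine nucleotide for DNA, was the exception. It was measured at 0.504, 0.390, 0.368, 0.505 and 0.374 RPKM in Ctrl, 0.349, 0.393, 0.492, 0.473 and 0.670 in OVA and 0.315, 0.118, 0.405, 0.187 and 0.227 in EAE. EAE mice were lower on average, although the groups overlapped. TYMS fell by 0.64 on the log2 scale vs. Ctrl (adjusted p = 0.0285) and by 0.75 vs. OVA (adjusted p = 0.0171, limma). The call vs. Ctrl was lost without Ctrl mouse 1 or 4 or without EAE mouse 2, 4 or 5 (adjusted p up to 0.0877), and the call vs. OVA without EAE mouse 2 (adjusted p = 0.0544). A pseudogene copy is annotated for TYMS, CCNB1 and CCNB2, and 2 for PCNA, and how reads were shared between copies was not stated.

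CDK1 and its cyclins fell in 3 of 4 genes in both comparisons. CDK1, the kinase that starts mitosis, was measured at 0.537, 0.504, 0.379, 0.531 and 0.211 RPKM in Ctrl, 0.160, 0.493, 0.291, 0.334 and 0.589 in OVA and 0.229, 0.105, 0.0440, 0.0498 and 0.143 in EAE. EAE values were the lowest of the day in 4 of 5 mice, and the remaining EAE mouse overlapped with the lowest mice of Ctrl and OVA. CDK1 was 2.52-fold lower than in Ctrl (log2 fold change -1.34 ± 0.30, adjusted p = 0.00242; SE) and 2.19-fold lower than in OVA (adjusted p = 0.00928). These levels rest on 5 to 18 estimated reads in EAE mice and 17 to 55 in Ctrl mice. CCNB2, a B-type cyclin that activates CDK1, was measured at 0.719, 0.994, 0.586, 1.07 and 0.498 RPKM in Ctrl, 0.593, 0.686, 0.911, 0.550 and 0.762 in OVA and 0.247, 0.0975, 0.286, 0.308 and 0.177 in EAE. Each EAE mouse was below all mice of both other groups. CCNB2 was 2.70-fold lower than in Ctrl (log2 fold change -1.43 ± 0.23, adjusted p = 0.000228) and 2.53-fold lower than in OVA (adjusted p = 0.000510). CCNA2, the cyclin of S phase and early mitosis, was measured at 0.455, 0.449, 0.386, 0.811 and 0.234 RPKM in Ctrl, 0.458, 0.486, 0.629, 0.302 and 0.836 in OVA and 0.116, 0.125, 0.224, 0.219 and 0.275 in EAE. The EAE mice lay below all OVA mice, while 1 Ctrl mouse fell within their range. CCNA2 was 1.89-fold lower than in Ctrl (adjusted p = 0.0135) and 2.16-fold lower than in OVA (adjusted p = 0.00573). CCNB1, the other B-type cyclin, was at 0.135, 0.129 and 0.0741 RPKM and did not pass (log2 fold change -0.40 vs. Ctrl, adjusted p = 0.153).

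Among mitotic kinases, the chromosomal passenger complex and the spindle checkpoint, 5 of 5 tested genes fell in both comparisons. AURKA, the aurora kinase of centrosomes and spindle poles, was measured at 4.30, 3.71, 3.77, 4.32 and 2.99 RPKM in Ctrl, 3.22, 2.33, 3.41, 3.03 and 4.66 in OVA and 1.86, 1.05, 2.24, 2.09 and 1.65 in EAE. No EAE mouse reached the lowest Ctrl or OVA mouse. AURKA was 2.13-fold lower than in Ctrl (log2 fold change -1.09 ± 0.20, adjusted p = 0.000570) and 1.84-fold lower than in OVA (adjusted p = 0.00357). With the filter of the study (above 3 RPKM in a compared group), 5 and 6 of the 33 genes could be tested. AURKA was the 1 called, but it entered through Ctrl or OVA alone, since every EAE mouse was below 3 RPKM. This call is therefore no separate support. AURKB, the aurora kinase of the passenger complex, was measured at 0.370, 0.622, 0.300, 0.480 and 0.336 RPKM in Ctrl, 0.127, 0.405, 0.638, 0.406 and 0.626 in OVA and 0.111, 0.0768, 0.0964, 0.146 and 0.116 in EAE. EAE mice held 3 to 6 estimated reads, and the lowest OVA mouse lay within the EAE range. AURKB was 2.45-fold lower than in Ctrl (log2 fold change -1.29 ± 0.28, adjusted p = 0.00188) and 2.40-fold lower than in OVA (adjusted p = 0.00290).

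BIRC5, survivin, which sits with AURKB in the passenger complex, was measured at 0.362, 0.277, 0.370, 0.432 and 0.209 RPKM in Ctrl, 0.231, 0.193, 0.183, 0.310 and 0.284 in OVA and 0.0638, 0.0440, 0.157, 0.0695 and 0.107 in EAE. All EAE mice were below all others. BIRC5 was 2.29-fold lower than in Ctrl (log2 fold change -1.20 ± 0.21, adjusted p = 0.000370) and 1.83-fold lower than in OVA (adjusted p = 0.00498). PLK1, the polo-like kinase of centrosomes and kinetochores, fell from 0.523, 0.491, 0.369, 0.446 and 0.274 RPKM in Ctrl and 0.170, 0.340, 0.330, 0.385 and 0.464 in OVA to 0.124, 0.182, 0.171, 0.129 and 0.227 in EAE (adjusted p = 0.00234 and 0.0225, limma). BUB1B, a checkpoint protein that holds back anaphase, fell from 0.244 ± 0.0889 and 0.305 ± 0.0583 to 0.122 ± 0.0534 RPKM (adjusted p = 0.0270 and 0.00529). The PLK1 call vs. OVA was lost without OVA mouse 4 or 5 or EAE mouse 1 or 4 (adjusted p up to 0.0633), and the BUB1B call vs. Ctrl without Ctrl mouse 1 or 4 or EAE mouse 2 or 4 (adjusted p up to 0.0733). BUB1, the partner kinase of the checkpoint, was below the filter, with 0.101, 0.130 and 0.0558 RPKM in Ctrl, OVA and EAE.

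Both genes that act with the anaphase-promoting complex fell. UBE2C, the enzyme that hands ubiquitin to its substrates, was measured at 1.69, 1.02, 1.02, 1.39 and 0.942 RPKM in Ctrl, 1.52, 0.946, 1.45, 1.37 and 2.47 in OVA and 0.585, 0.215, 0.642, 0.357 and 0.0977 in EAE. The highest EAE mouse was below the lowest Ctrl and OVA mice. UBE2C was 3.00-fold lower than in Ctrl (log2 fold change -1.58 ± 0.32, adjusted p = 0.00133) and 3.69-fold lower than in OVA (log2 fold change -1.88 ± 0.32, adjusted p = 0.000445), the largest falls among the tested members in both comparisons. In the GENCODE annotation, however, 592 bp of UBE2C exons overlap TNNC2, fast troponin C, on the opposite strand, and the strand setting of the read counting was not stated. TNNC2 was at 16636, 13928 and 8600 RPKM, and it was lower in EAE vs. Ctrl (log2 fold change -0.93, adjusted p = 0.0110) and not called vs. OVA (-0.67, adjusted p = 0.0658). Its part in the UBE2C values was not tested.

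CDC20, the activator of the anaphase-promoting complex, was measured at 1.15, 1.21, 0.633, 1.20 and 0.523 RPKM in Ctrl, 1.28, 0.543, 0.729, 0.683 and 1.20 in OVA and 0.366, 0.589, 0.335, 0.505 and 0.586 in EAE. The EAE mice lay at the low end of the overlapping groups. CDC20 was 1.76-fold lower than in Ctrl (log2 fold change -0.81 ± 0.26, adjusted p = 0.0223) and 1.67-fold lower than in OVA (adjusted p = 0.0450). The call vs. Ctrl was lost without Ctrl mouse 1, 2 or 4 or EAE mouse 1 or 3 (adjusted p up to 0.0579), and the call vs. OVA without any mouse of either group except OVA mouse 2 (adjusted p up to 0.113). Quantile normalization ended both calls, and no filter or a replicate block also ended the call vs. OVA. Exons of neighbours on the opposite strand also overlap CCNA2 (EXOSC9, 510 bp), KIF20A (CDC23, 1271 bp), PRC1 (RCCD1, 911 bp), NUSAP1 (OIP5, 172 bp), CDC20 (ELOVL1, 53 bp), PLK1 (GM44985, 156 bp) and MCM7 (AP4M1, 321 bp, and COPS6, 64 bp). On the same strand, MIR25 (84 bp) and MIR93 (88 bp) overlap MCM7 and GM23451 (122 bp) overlaps TOP2A. Of these neighbours, EXOSC9, CDC23, RCCD1, ELOVL1, AP4M1 and COPS6 were tested and 0 were called in either comparison.

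Spindle, kinetochore and cytokinesis genes fell in 3 of 8 tested genes vs. Ctrl and in 0 of 8 vs. OVA, and whether they differ in this from the other roles was not tested. The 0 of 8 vs. OVA was not kept under all settings: TPX2 and NUSAP1 were called lower with median-of-ratios scaling or without EAE mouse 3, NUSAP1 without OVA mouse 5, PRC1 without EAE mouse 2 or with a pseudocount of 1 RPKM and no fold threshold, and CENPF with no filter. TPX2, which activates AURKA on spindle microtubules, was measured at 1.49, 0.970, 1.31, 1.52 and 0.678 RPKM in Ctrl, 0.960, 1.01, 0.810, 0.838 and 1.09 in OVA and 0.449, 0.539, 0.958, 0.576 and 0.552 in EAE. EAE mouse 3 overlapped with the other groups and the other four were below them. TPX2 was 1.79-fold lower than in Ctrl (log2 fold change -0.84 ± 0.21, adjusted p = 0.00564), and vs. OVA the log2 fold change was -0.57 (adjusted p = 0.0531). NUSAP1, a protein that bundles spindle microtubules, was measured at 0.375, 0.624, 0.519, 0.649 and 0.871 RPKM in Ctrl, 0.421, 0.506, 0.509, 0.770 and 0.311 in OVA and 0.202, 0.135, 0.425, 0.321 and 0.353 in EAE. The groups overlapped in the upper EAE mice. NUSAP1 was 1.85-fold lower than in Ctrl (log2 fold change -0.89 ± 0.25, adjusted p = 0.0114), and vs. OVA the log2 fold change was -0.65 (adjusted p = 0.0626). CENPE, the kinesin that moves chromosomes to the spindle equator, was measured at 0.207, 0.196, 0.122, 0.240 and 0.176 RPKM in Ctrl, 0.122, 0.203, 0.146, 0.102 and 0.150 in OVA and 0.119, 0.0833, 0.0323, 0.0790 and 0.0757 in EAE. Every EAE mouse lay below the Ctrl mice, and the highest EAE mouse overlapped with OVA. CENPE was 1.63-fold lower than in Ctrl (log2 fold change -0.70 ± 0.19, adjusted p = 0.00844), a call lost with quantile normalization, and vs. OVA the log2 fold change was -0.47 (adjusted p = 0.0750).

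The other spindle genes did not pass. Log2 fold changes vs. Ctrl were -0.45 for KIF20A, a kinesin of the central spindle, -0.32 for PRC1, which cross-links the central spindle, -0.31 for RACGAP1 and -0.05 for ECT2, both regulators of the cleavage furrow, and -0.24 for KIF11, the kinesin that pushes spindle poles apart. Their adjusted p-values were 0.0722 (KIF20A) to 0.886 (ECT2, limma). CENPF was below the filter, with 0.105, 0.108 and 0.0287 RPKM in Ctrl, OVA and EAE.

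MKI67, the Ki-67 protein that coats mitotic chromosomes and serves as the usual marker of proliferating cells, was measured at 0.436, 0.550, 0.318, 0.585 and 0.419 RPKM in Ctrl, 0.297, 0.647, 0.630, 0.489 and 0.613 in OVA and 0.103, 0.189, 0.209, 0.259 and 0.320 in EAE. The highest EAE mouse overlapped by a small margin with the lowest mouse of each other group. MKI67 was 1.80-fold lower than in Ctrl (log2 fold change -0.85 ± 0.23, adjusted p = 0.00790) and 2.02-fold lower than in OVA (log2 fold change -1.01 ± 0.23, adjusted p = 0.00351). TOP2A, the topoisomerase that untangles sister chromosomes, was measured at 0.924, 0.924, 0.494, 1.08 and 0.536 RPKM in Ctrl, 0.239, 0.954, 0.857, 0.813 and 0.940 in OVA and 0.271, 0.154, 0.271, 0.237 and 0.375 in EAE. Every EAE mouse was below every Ctrl mouse, and the lowest OVA mouse lay within the EAE range. TOP2A was 2.42-fold lower than in Ctrl (log2 fold change -1.28 ± 0.30, adjusted p = 0.00348) and 2.25-fold lower than in OVA (adjusted p = 0.00810).

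**Figure D2:**
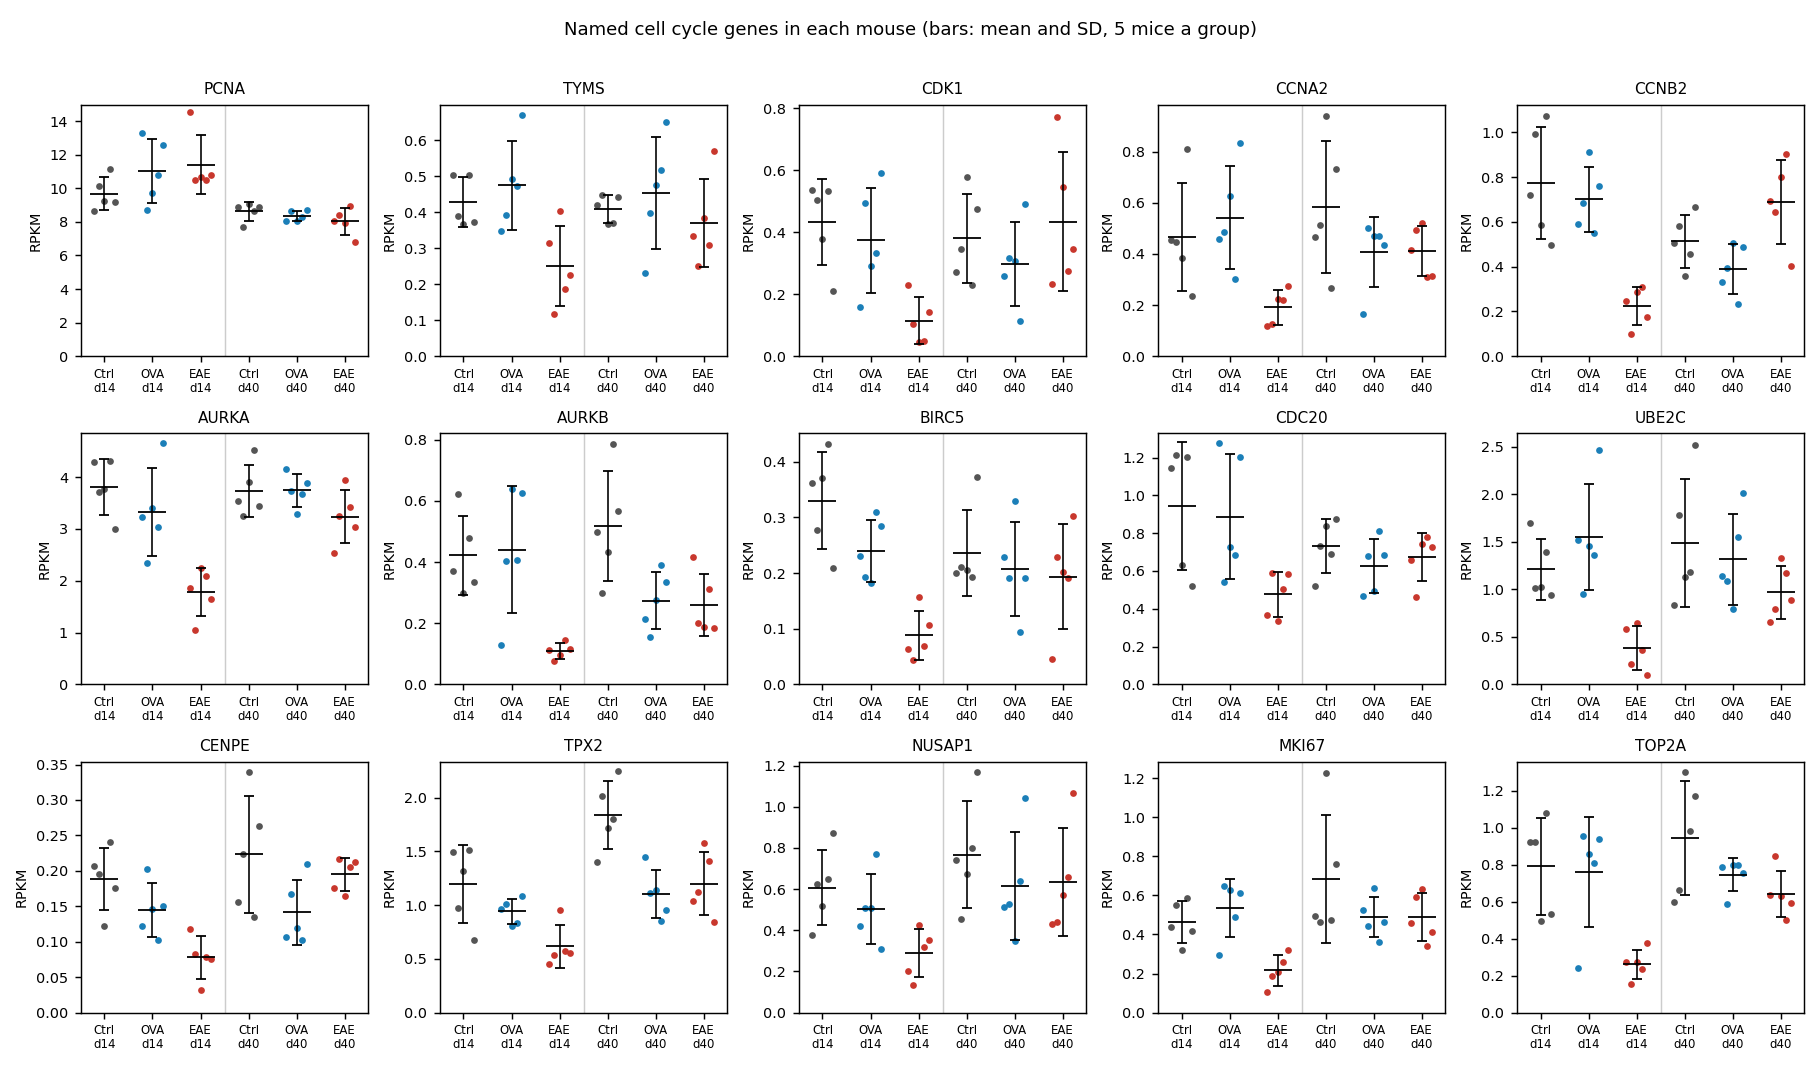
RPKM (y axis, each panel starting at 0) of 15 genes in each mouse of the 6 groups (x axis), with points for mice and bars for mean and SD (n = 5). Day 14 EAE mice form the lowest group mean in 14 panels, and PCNA is the exception.

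Levels were also summed by role, where AURKA has the largest weight outside replication. The 23 genes outside replication summed to 14.8 ± 2.76 RPKM in Ctrl, 14.2 ± 2.35 in OVA and 6.92 ± 0.705 in EAE on day 14 (SD, n = 5). EAE mice held 5.82 to 7.75 RPKM, below all Ctrl mice (11.0 to 18.1) and all OVA mice (12.1 to 18.0). Sums of each role outside replication did not overlap between EAE and Ctrl. Sums did not overlap between EAE and OVA either, except for MKI67 with TOP2A, where EAE mice had 0.342 to 0.695 RPKM and OVA mice 0.535 to 1.60. The 10 replication genes summed to 35.7 ± 2.88, 38.8 ± 2.10 and 40.2 ± 2.52 RPKM in Ctrl, OVA and EAE, and these overlapped. Across the 6 groups, day 14 EAE had the lowest mean in 21 of the 23 genes outside replication and the highest in 0. Among the 10 replication genes it had the lowest mean in 2 and the highest in 5.

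**Figure D3:**
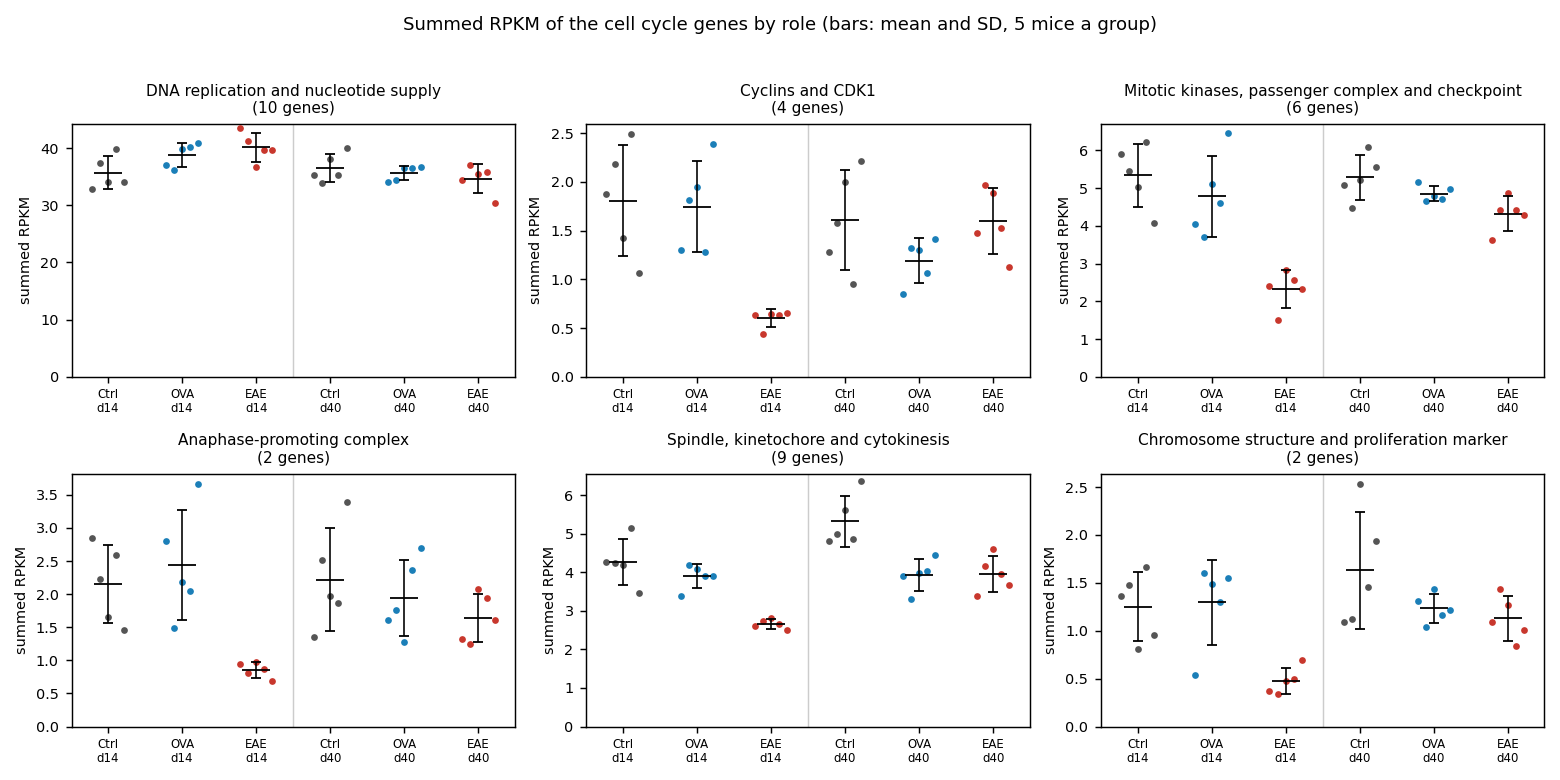
Summed RPKM (y axis, starting at 0) of the genes of each role in each mouse of the 6 groups (x axis), with points for mice and bars for mean and SD (n = 5). Sums of day 14 EAE lie below those of day 14 Ctrl in the 5 mitotic roles, and the replication sum does not.

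By day 40 the genes were no longer called between the groups, although the sum of the spindle role was still lower in EAE than in Ctrl mice. Of 31 genes tested (CCNB1 and BUB1 were below the filter), 0 were called in EAE vs. Ctrl, where 0.427% of all genes were called in either direction. Unadjusted p-values were below 0.05 in 3 genes, with log2 fold changes of -0.77 (AURKB, adjusted p = 0.0982), -0.59 (TPX2, adjusted p = 0.0819) and -0.46 (TOP2A, adjusted p = 0.170, limma). The share of all genes rested on 6 higher and 55 lower calls, which became 33 and 356 without Ctrl mouse 4. Without Ctrl mouse 3, without EAE mouse 3 or with a replicate block, 0 of all genes were called. In EAE vs. OVA, 0 genes were called and 1 had an unadjusted p below 0.05 (CCNB2, log2 fold change 0.68, adjusted p = 0.157), with 0.0771% of all genes called. In OVA vs. Ctrl, 0 genes were called and 3 had an unadjusted p below 0.05, with 0% of all genes called. The median log2 fold change of the members was -0.15, -0.01 and -0.17 in these comparisons. The 23 genes outside replication summed to 16.1 ± 2.32 RPKM in Ctrl, 13.1 ± 0.985 in OVA and 12.6 ± 1.46 in EAE, with overlapping ranges. Spindle, kinetochore and cytokinesis genes summed to 3.39 to 4.60 RPKM in EAE mice and 3.31 to 4.43 in OVA mice. Both groups lay below all Ctrl mice (4.81 to 6.36 RPKM). In the other roles the sums of EAE and Ctrl mice overlapped.

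Between the days, 13 genes were higher in EAE mice on day 40 than on day 14 and 0 lower, where 10.9% of all genes were called higher and 10% lower. The EAE mice of day 14 enter both this comparison and those of day 14. In Ctrl 1 gene was higher (TPX2, log2 fold change 0.62, adjusted p = 0.0268; 6.31% of all genes), and in OVA 1 gene was lower (CCNB2, -0.72, adjusted p = 0.0408; 1.37% of all genes). The TPX2 call was lost without any of 5 single mice (Ctrl mice 2 and 5 of day 14 and 2, 3 and 5 of day 40; adjusted p up to 0.0705), and also with either other scaling or a fit of the compared groups only. Over all genes, the 894 higher calls in Ctrl became 279 without mouse 1 of day 14 and 1427 without mouse 5 of day 14. With quantile normalization they became 470, against 645 lower. The CCNB2 call in OVA was lost without any of 7 (mice 1, 2, 3 and 5 of day 14 and 1, 2 and 4 of day 40; adjusted p up to 0.128), and also with a pseudocount of 0.01 RPKM or the replicate block. Summed cell type markers also moved in EAE mice between the days, and their part was not tested. Fibro-adipogenic progenitor genes went from 328-529 to 627-730 RPKM and erythroid genes from 21.2-149 to 139-845. Neutrophil genes went from 217-403 to 8.09-52.2 RPKM and satellite cell genes from 38.8-85.9 to 27.5-34.2.

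In EAE, CCNB2 rose to 0.695, 0.647, 0.802, 0.902 and 0.403 RPKM on day 40, and all 5 mice were above all EAE mice of day 14 (log2 fold change 1.30 ± 0.23, adjusted p = 4.00e-05). CDK1 rose to 0.232, 0.772, 0.544, 0.274 and 0.344 RPKM, again without overlap with day 14, although 2 mice were well above the other three (log2 fold change 1.29 ± 0.31, adjusted p = 0.00147). UBE2C rose to 0.657, 0.791, 1.33, 1.17 and 0.890 RPKM, without overlap (log2 fold change 1.28 ± 0.31, adjusted p = 0.00186), and TNNC2 also rose (log2 fold change 0.76, adjusted p = 0.00459). Set beside the Ctrl and OVA mice of day 40, 3 of these EAE mice were above their range for CCNB2 (0.356 to 0.668 and 0.235 to 0.508 RPKM), 1 was above it for CDK1 (0.230 to 0.576 and 0.112 to 0.491 RPKM), and 1 was below it for UBE2C (0.836 to 2.52 and 0.788 to 2.01 RPKM). MKI67 rose to 0.461, 0.593, 0.632, 0.341 and 0.411 RPKM (log2 fold change 0.91 ± 0.23, adjusted p = 0.00264), and AURKA to 2.54, 3.25, 3.94, 3.42 and 3.05 RPKM (log2 fold change 0.86 ± 0.17, adjusted p = 0.000143). Neither overlapped with its day 14 values.

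The other 8 genes that rose were TOP2A (log2 fold change 1.05), NUSAP1 (0.92), TPX2 (0.87), PLK1 (0.85), CCNA2 (0.82), AURKB (0.75), CENPE (0.74) and BIRC5 (0.60). Quantile normalization left 8 of the 13, without AURKB, BIRC5, CCNA2, CENPE and PLK1. Some of the calls also depended on single mice. CCNA2 was lost without EAE mouse 1 or 2 of day 14 or 3 of day 40 (adjusted p up to 0.0595), and AURKB without mouse 2 of day 14 or 1 or 4 of day 40 (adjusted p up to 0.0875). BIRC5 was lost without any of 8 of the 10 mice (adjusted p up to 0.142), and held only without mouse 3 of day 14 or mouse 1 of day 40. A fit of the compared groups only or a replicate block ended the BIRC5 call too. TYMS, BUB1B and CDC20, which had fallen on day 14, did not pass between the days (log2 fold changes 0.45, 0.38 and 0.43; adjusted p = 0.0999, 0.156 and 0.135, limma). PCNA moved the other way, with a log2 fold change of -0.50 in EAE (adjusted p = 0.000436), and MCM4 had -0.41 (adjusted p = 0.00723). Both were below the fold threshold and were not called.

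An interaction term over all 30 mice tested whether the difference of EAE from the other groups changed with time. Relative to Ctrl, 4 genes changed (CCNB2, CDK1, BIRC5 and AURKA), all towards EAE values that were higher relative to Ctrl. Of all genes, 10.3% were called in this direction, a share close to that of the members. A fall in the other group adds to such a change. Within EAE, CCNB2 rose by 1.30, CDK1 by 1.29, AURKA by 0.86 and BIRC5 by 0.60, each less than its change relative to Ctrl. CCNB2 had the largest change, with a log2 difference of 1.78 ± 0.32 (SE, adjusted p = 0.000115, limma), followed by CDK1 (1.44, adjusted p = 0.0111), BIRC5 (0.95, adjusted p = 0.0279) and AURKA (0.89, adjusted p = 0.00422). Relative to OVA, 8 genes changed, where 6.28% of all genes were called in this direction. These were CCNB2 (2.02), CDK1 (1.54), UBE2C (1.5), AURKB (1.21), CCNA2 (1.16), MKI67 (1.00), CENPE (0.77) and AURKA (0.66). Several of these calls were lost when 1 mouse was left out. BIRC5 vs. Ctrl was lost without Ctrl mouse 4 or EAE mouse 2 of day 14 or EAE mouse 5 of day 40 (adjusted p up to 0.0593), and MKI67 vs. OVA without EAE mouse 1 of day 14 or OVA mouse 4 or EAE mouse 3 of day 40 (adjusted p up to 0.0554). CENPE was lost without OVA mouse 2 or EAE mouse 3 of day 14 or OVA mouse 1, 3 or 4 of day 40 (adjusted p up to 0.059), CCNA2 without any of 7 and AURKA vs. OVA without any of 10 of the 20 mice (adjusted p up to 0.0768 and 0.0938). AURKA vs. OVA was also lost with no filter or a fit of the compared groups only. With median-of-ratios scaling the changed genes numbered 9 (vs. Ctrl, adding TOP2A, BUB1B, UBE2C, CENPE and PLK1) and 13 (vs. OVA, adding TOP2A, BUB1B, TPX2, CDC20 and PLK1). Of all 14175 genes tested with this scaling, 2026 (vs. Ctrl) and 1243 (vs. OVA) were called in this direction. TNNC2, which overlaps UBE2C, also changed relative to both groups.

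Regulators of the cell cycle were read from lists of related genes. CDKN1A, the p21 protein that inhibits CDKs and is induced by p53, had the largest change of 7 CDK inhibitors. It was measured at 29.6, 18.5, 31.9, 22.3 and 19.5 RPKM in Ctrl, 48.6, 20.1, 17.5, 24.7 and 31.5 in OVA and 287, 243, 102, 125 and 234 in EAE. All EAE mice were above all others, with 7.69-fold higher levels than Ctrl (log2 fold change 2.94 ± 0.30, adjusted p = 4.51e-06) and 6.88-fold higher than OVA (adjusted p = 9.97e-06). On day 40 the 5 EAE mice had 17.4 to 28.3 RPKM, and CDKN1A fell by 2.95 on the log2 scale between the days (adjusted p = 4.69e-10).

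The other CDK inhibitors were not called higher in EAE on day 14. CDKN2B (p15) was lower in EAE vs. Ctrl (log2 fold change -0.72, adjusted p = 0.0128) and not called vs. OVA (-0.29, adjusted p = 0.314). CDKN1B (p27) was at 20.3, 21.9 and 26.0 RPKM in Ctrl, OVA and EAE. Every EAE mouse (24.9 to 26.9 RPKM) was above every Ctrl mouse (13.8 to 23.3) and every OVA mouse (19.7 to 24.1). The log2 fold change of CDKN1B vs. Ctrl, 0.38 (adjusted p = 0.0239, limma), was below the fold threshold. CDKN1C (p57, -0.53, adjusted p = 0.0139) and CDKN2D (p19, -0.56, adjusted p = 0.00706) were below the fold threshold too. CDKN2C (p18) and CDKN2A were not called (adjusted p = 0.889 and 0.225, limma).

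Of 12 G1 cyclins, their kinases and activating E2F factors, 3 fell and 1 rose vs. Ctrl, and 3 fell and 2 rose vs. OVA, where 13.8% and 9.39% of all genes fell and 11.6% and 8.53% rose. These shares also apply to the lists that follow. CCND1, the cyclin that carries growth signals into G1, had 5.97, 6.24 and 2.28 RPKM and fell by 1.35 on the log2 scale vs. Ctrl (adjusted p = 0.00142). E2F1, which activates S-phase genes, had 1.26, 1.02 and 0.421 RPKM and fell by 1.42 (adjusted p = 5.58e-05). CCND2 fell as well (-0.72 vs. Ctrl, -0.79 vs. OVA). E2F2 rose in both comparisons (0.59 and 0.59) and CCNE1 vs. OVA (1.30).

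Among 16 tested pocket proteins, repressor E2F factors and members of the DREAM complex, with the mitotic activators MYBL2 and FOXM1, 7 rose and 1 fell vs. Ctrl, and 4 rose and 1 fell vs. OVA. RB1, the retinoblastoma protein that holds E2F factors inactive, had 25.5, 29.3, 14.3, 23.1 and 24.6 RPKM in EAE mice, against 2.76 to 6.13 in Ctrl and 5.23 to 7.07 in OVA (log2 fold change 2.15 ± 0.21, adjusted p = 3.80e-06). The repressor E2F4 had 63.3, 45.2, 30.7, 36.3 and 38.5 RPKM in EAE, against 13.5 to 17.1 and 14.3 to 17.6 (log2 fold change 1.42 ± 0.15, adjusted p = 5.76e-06). Both genes were higher in every EAE mouse than in all others of the day. FOXM1, an activator of G2 and mitotic genes, was the 1 that fell, from 0.320 and 0.358 to 0.153 RPKM (adjusted p = 0.0190 and 0.0101). RBL2 and E2F8 rose in both comparisons as well, RBL2 by 0.88 and 0.65 and E2F8 by 0.81 and 0.84 on the log2 scale. TFDP2 (0.79), LIN54 and RBBP4 rose vs. Ctrl.

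Of 13 growth arrest genes and p53 targets, 5 rose and 2 fell vs. Ctrl and 3 rose and 1 fell vs. OVA. GADD45A, a stress-induced growth arrest gene, rose by 2.62 and 3.00 on the log2 scale, the antiproliferative gene BTG2 by 2.11 and 2.14, and the p53 inhibitor MDM2 by 0.68 and 0.71 (adjusted p of at most 0.000210, limma). TOB2 (1.21) and TOB1 (0.72) rose vs. Ctrl. GADD45B fell in both (-1.72 and -0.95), and SESN1 vs. Ctrl (-0.66).

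Wider lists without the 33 genes were read in the same way. Of 43 other mitotic genes tested, 12 fell and 2 rose vs. Ctrl, and 13 fell and 2 rose vs. OVA, where 13.8% and 9.39% of all genes fell. The centromere histone CENPA (-1.25 and -1.13), the kinetochore gene NUF2 (-1.13 and -1.23) and the mitotic kinase PBK (-1.26 and -1.48) fell in both. NDC80 (-1.14) and the securin gene PTTG1 (-1.12) were among the largest falls vs. Ctrl, and CDCA8 (-1.28) and MELK (-0.96) among those vs. OVA. Summed over the 46 listed genes, levels overlapped, with 61.6 ± 7.73 RPKM in Ctrl, 59.3 ± 5.49 in OVA and 58.6 ± 6.03 in EAE (SD, n = 5). Against this direction, the kinetochore gene SPC24 rose in both comparisons (1.77 and 1.29), KIF18A vs. Ctrl (0.67) and SPC25 vs. OVA (1.06).

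Of 35 other replication genes tested, 3 fell and 2 rose vs. Ctrl, and 3 fell and 1 rose vs. OVA, which was below the share of all genes in each direction. Those that fell in both were TK1, thymidine kinase (-1.02 and -0.88), DUT, which keeps uracil out of DNA (-0.91 and -0.76), and UHRF1, which maintains DNA methylation (-0.77 and -0.97). ORC3 (0.70) and ORC4 (0.63) of the origin recognition complex rose vs. Ctrl, and POLE (0.66) vs. OVA. On day 40, 0 genes of these regulator and pathway lists were called in EAE vs. Ctrl or EAE vs. OVA.

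**Figure D4:**
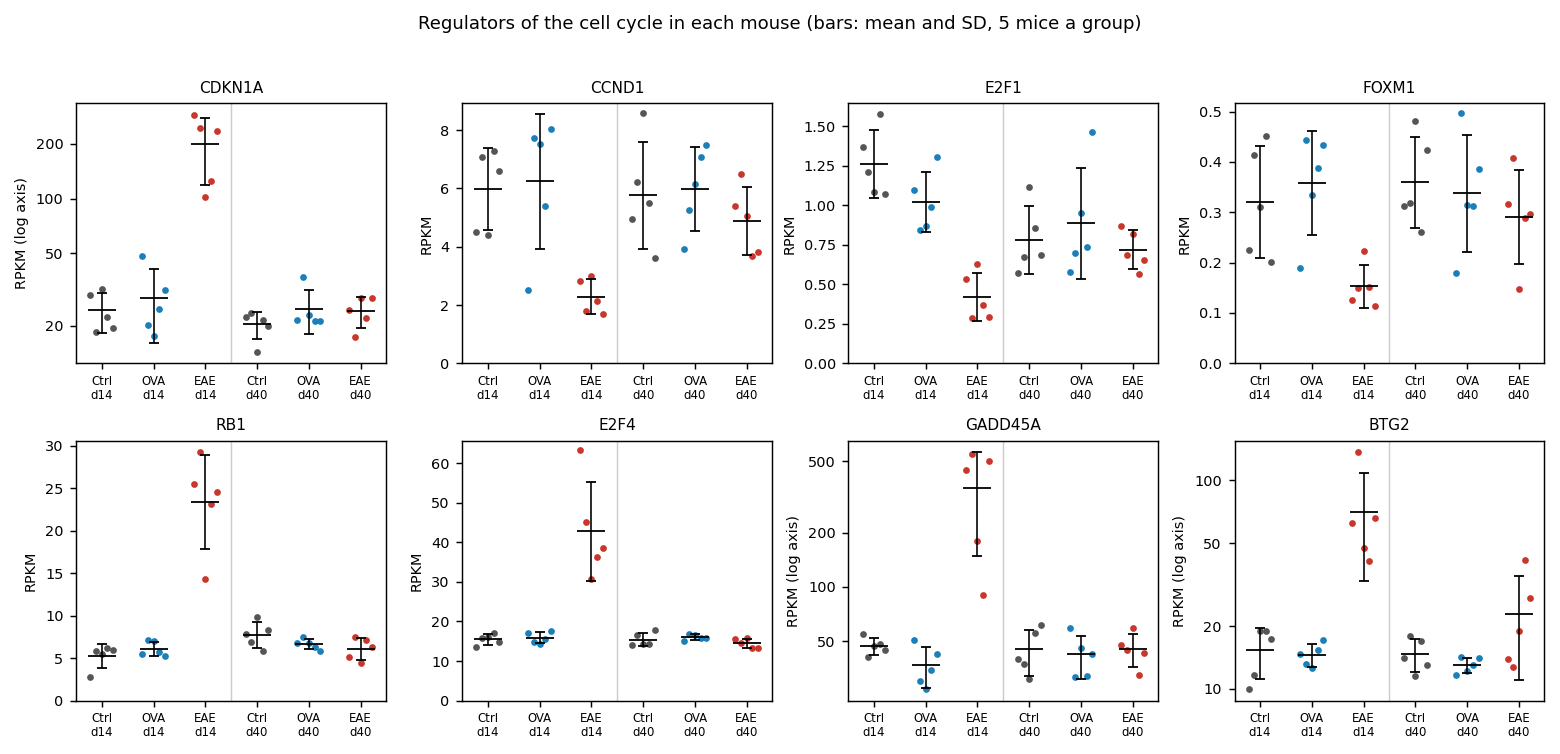
RPKM (y axis, log scale where the label says so, otherwise starting at 0) of 8 regulators in each mouse of the 6 groups (x axis), with points for mice and bars for mean and SD (n = 5). CDKN1A, RB1, E2F4, GADD45A and BTG2 stand higher in day 14 EAE, and CCND1, E2F1 and FOXM1 lower.

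Markers of the cell types that divide in or visit muscle moved on day 14 as well, and their part in the results above was not tested. Genes of fibro-adipogenic progenitors fell in 6 of 7 (EAE vs. Ctrl) and 5 of 7 (EAE vs. OVA), with a summed level of 740 to 834 RPKM in Ctrl, 569 to 752 in OVA and 328 to 529 in EAE. Macrophage genes fell in 4 and 5 of 8, from 277 to 417 and 261 to 399 to 134 to 298 RPKM. Erythroid genes fell in 4 and 5 of 7, from 151 to 540 and 385 to 1269 to 21.2 to 149 RPKM. In contrast to these, satellite cell genes rose in 3 of 5 tested (MYF5, CDH15 and SDC4) in both comparisons, from 29.8 to 37.2 and 26.3 to 38.9 to 38.8 to 85.9 RPKM. The defining satellite cell factor PAX7 was at 0.324, 0.253 and 0.422 RPKM and was not called (adjusted p = 0.395 and 0.119).

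Neutrophil genes rose in 7 of 7 in both EAE and OVA vs. Ctrl, with 3.75 to 10.5 RPKM in Ctrl, 68.0 to 235 in OVA and 217 to 403 in EAE, and 1 of 7 rose in EAE vs. OVA. Neutrophil precursor genes, which mark dividing cells of that lineage, were low in all groups (0.184 to 0.498, 0.444 to 0.856 and 0.168 to 0.407 RPKM) and 0 of 2 tested were called, although the sums of all OVA mice were above those of all EAE mice. Lymphocyte genes summed to 2.63 to 6.90, 2.72 to 4.70 and 1.90 to 3.48 RPKM and fell in 3 and 1 of 9, and endothelial genes to 89.5 to 119, 75.6 to 147 and 70.4 to 111 RPKM and fell in 2 and 2 of 7. Of 4 slow fibre genes, 1 (MYL3) fell in both comparisons. Erythroid genes rose in 2 of 7 in OVA vs. Ctrl. On day 40, 0 genes of the marker lists were called in EAE vs. Ctrl or EAE vs. OVA.

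**Figure D5:**
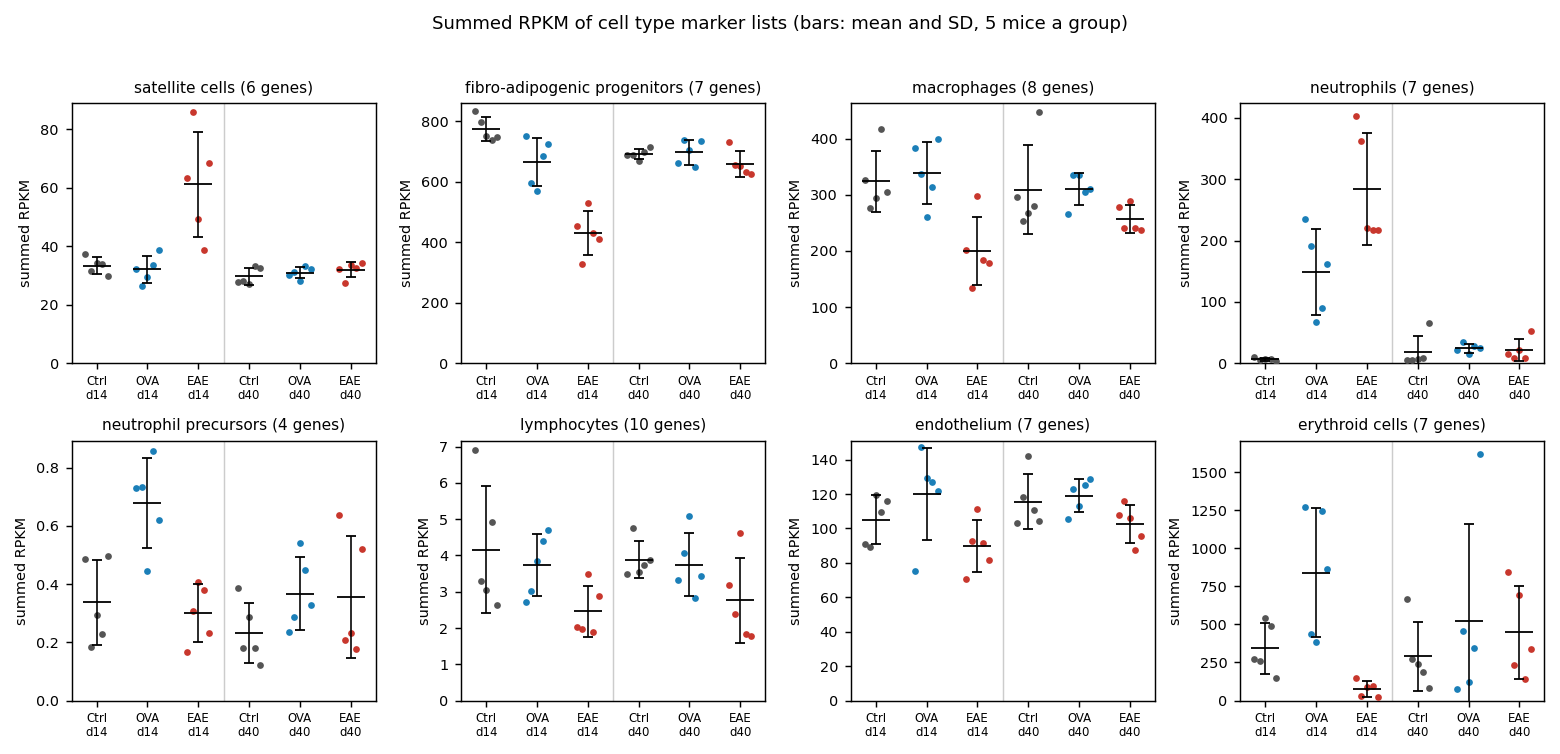
Summed RPKM (y axis, starting at 0) of 8 marker lists in each mouse of the 6 groups (x axis), with points for mice and bars for mean and SD (n = 5), where SD bars are cut at 0 for day 40 OVA in the erythroid panel and day 40 Ctrl in the neutrophil panel. Day 14 EAE has the highest mean for satellite cell and neutrophil genes and the lowest for fibro-adipogenic progenitor, macrophage and erythroid genes.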

How the data were processed

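RNA-Seq was performed on EDL muscles of 30 SJL/J mice (poly(A) RNA, directional libraries, paired-end reads). The authors aligned reads to mm10 with Subread, counted them on RefSeq genes with featureCounts and calculated RPKM. The strand setting is not given in the sources used here. The deposited table holds log2(RPKM + 1), as its values show: converted back, RPKM times exon length summed to 96.4% to 103% of the total that RPKM implies, against 11.5% to 13.7% if read as RPKM. In 25.8% of values, 0.0001 stood for no read, and 27 symbols had become dates and were named by Entrez identifier. Values were converted back to RPKM. Depth was estimated from the RPKM of 1 read with GENCODE exon lengths, with a median of 69.5% of low values being whole reads within 0.05 (10% by chance). No 2 mice shared values above 0 (0% identical).

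Tests used limma 3.58.1 in R 4.3.3 (lmFit, eBayes with trend) on log2(RPKM + 0.1), fitted to the 15 mice of each day, or to all 30 mice between days and for interactions. Genes entered with a mean above 0.1 RPKM over the mice of the model, since the filter of the study (above 3 RPKM in a compared group) would leave out most of these genes. P-values were adjusted by Benjamini-Hochberg over all genes, and calls needed an adjusted p below 0.05 and a fold above 1.5. The tests were tested on simulated data, and the outcome is not given here. Each mouse is 1 sample. P-values weigh a difference of group means against the spread between mice, pooled over the groups of the model and moderated over genes. Values in every mouse were given for MKI67 and PCNA, up to 3 called members of each role by size of change, and for further genes singled out after their values were seen. Members and lists were chosen with earlier results of these data known. Alternatives were other pseudocounts, filters and scalings, leaving out each mouse, and a replicate block. RefSeq promoters were searched in Python 3.11.15. GMNN was not analysed here.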

Additional observations from a re-analysis of the deposited data

Results flagged for a closer look

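In 204 groups of 5 mice, 15 held a mouse far from the other four by Dixon's criterion, where chance gives about 5%. Low mice were found for MCM3 (OVA mouse 1 of day 14, 2.04 RPKM, others 2.99 to 3.33), MCM4 (EAE mouse 5 of day 40, 1.67 RPKM), MCM7 (Ctrl mouse 5 of day 14, 3.75 RPKM), PCNA (Ctrl mouse 2 of day 40, 7.67 RPKM), CCNA2 (OVA mouse 1 of day 40, 0.164 RPKM) and RACGAP1 (OVA mouse 5 of day 14, 0.533 RPKM). TOP2A was low in OVA mouse 1 of day 14 (0.239 RPKM, others 0.813 to 0.954) and in OVA mouse 2 of day 40 (0.590 RPKM). High mice were found for PCNA (EAE mouse 1 of day 14, 14.6 RPKM, others 10.5 to 10.8), BIRC5 (Ctrl mouse 5 of day 40, 0.374 RPKM), PLK1 (OVA mouse 3 of day 40, 0.621 RPKM), CENPF (EAE mouse 2 of day 40, 0.140 RPKM), TPX2 (EAE mouse 3 of day 14, 0.958 RPKM, others 0.449 to 0.576), ECT2 (EAE mouse 3 of day 40, 0.300 RPKM) and CDKN1A (OVA mouse 2 of day 40, 36.9 RPKM).

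The difference of EAE from another group changed between day 14 and day 40 in 12 tests of the interaction (limma), 4 vs. Ctrl, where 10.3% of all genes were called in this direction, and 8 vs. OVA, where 6.28% were. The calls of BIRC5 vs. Ctrl and of MKI67, CENPE, CCNA2 and AURKA vs. OVA were lost without single mice. Relative to Ctrl, the log2 changes were 1.44 (CDK1, adjusted p = 0.0111), 1.78 (CCNB2, adjusted p = 0.000115), 0.89 (AURKA, adjusted p = 0.00422) and 0.95 (BIRC5, adjusted p = 0.0279). Relative to OVA, they were 1.54 (CDK1, adjusted p = 0.0111), 1.16 (CCNA2, adjusted p = 0.0335), 2.02 (CCNB2, adjusted p = 3.05e-05), 0.66 (AURKA, adjusted p = 0.0383), 1.21 (AURKB, adjusted p = 0.0196), 1.5 (UBE2C, adjusted p = 0.0143), 0.77 (CENPE, adjusted p = 0.0314) and 1.00 (MKI67, adjusted p = 0.0271).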

How the results depend on the processing

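The counts of lower genes on day 14 stayed within 1.5 times under the other scalings, no filter, a pseudocount of 0.01 and no fold threshold. Quantile normalization still ended calls, leaving 12 lower genes vs. Ctrl (without BUB1B, CENPE, CDC20 and TYMS) and 11 vs. OVA (without CDC20 and PLK1), and CDC20 vs. OVA was also lost with no filter. They changed with a larger pseudocount or the filter of the study, which remove rare genes or shrink their fold. In EAE vs. Ctrl, 16 lower genes became 2 with a pseudocount of 1 RPKM, 7 with 0.5 and 1 with the study filter, and 13 to 16 without single mice. In EAE vs. OVA, 13 became 2, 5 and 1, and 11 to 14 without single mice. Of genes higher in EAE vs. Ctrl, 0 became 1 with no fold threshold, under either pseudocount. Genes higher on day 40 than day 14 in EAE went from 13 to 1 (pseudocount of 1), 4 (0.5), 1 (study filter) and 8 (quantile normalization, without AURKB, BIRC5, CCNA2, CENPE and PLK1), and 11 to 15 without single mice, and 0 lower genes became 2 with no fold threshold under either pseudocount. In Ctrl, the 1 higher gene became 0 with either larger pseudocount, the study filter, both scalings or a fit of the compared groups only, and 2 with no fold threshold under either pseudocount (0 to 1 without single mice). The 0 lower genes became 1 with quantile normalization (0 to 1 without single mice). In OVA, the 1 lower gene became 0 with pseudocounts of 1, 0.5 and 0.01, the study filter and the replicate block, and 2 with quantile normalization or no fold threshold under either pseudocount (0 to 1 without single mice). For the change of EAE vs. Ctrl between days, 4 higher genes became 2 (pseudocount of 1), 1 (study filter) and 9 (median-of-ratios scaling), and 3 to 7 without single mice, and 0 lower genes became 2 with no fold threshold under either pseudocount. For EAE vs. OVA, 8 became 2, 1 and 13, 4 with a pseudocount of 1 and no fold threshold and 3 with 0.5, and 6 to 10 without single mice. The pseudocounts of 0.5 and of 1 with no fold threshold were chosen after seeing the data. PCNA in EAE vs. OVA on day 14 turned to -0.034 (median-of-ratios scaling), -0.038 (quantile normalization), -0.024 (without OVA mouse 2) and -0.036 (without EAE mouse 1), with 0.13 as the highest value without a single mouse; the cause was not tested. Over single genes, 1179 alternatives kept direction and call, 193 lost the call and 4 reversed. Genes that a setting removed were not counted as lost, so the filter of the study entered with 7 alternatives only.

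Over all genes, median-of-ratios scaling turned 1625 higher and 1935 lower calls in EAE vs. Ctrl on day 14 into 1239 and 2327, 1192 and 1312 in EAE vs. OVA into 909 and 1654, and 1548 and 1421 between the days in EAE into 1950 and 1091. It shifted the median log2 change of the interactions by 0.12 (vs. Ctrl) and 0.12 (vs. OVA). Their 1460 higher and 2451 lower calls vs. Ctrl became 2026 and 1693. Those vs. OVA went from 890 and 1506 to 1243 and 963. Same-numbered mice deviated together (r above 0.1) in 0 to 3 of 5 pairs. On day 14, r was -0.23 to 0.51 (EAE and Ctrl), 0.03 to 0.70 (EAE and OVA) and -0.73 to 0.61 (OVA and Ctrl). The highest value of each came from the mice numbered 1. Whether numbers pair mice cannot be told from these values. With a replicate block, 16 and 12 genes were lower in EAE vs. Ctrl and vs. OVA on day 14. The block ended the calls of CDC20 (EAE vs. OVA, day 14), BIRC5 (between the days in EAE) and CCNB2 (between the days in OVA) and no other call of a member. Depth limits genes such as AURKB, CCNB1 and BUB1, which held few reads in a mouse.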
